A study of Mus musculus with 21 samples.

Results

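The genes described are 10 of the cellular zinc system, 10 of the 55400 genes counted in mouse motor neuron cultures. They are the metallothioneins *Mt1*, *Mt2* and *Mt3*, the transcription factor gene *Mtf1*, the Slc30 transporter genes *Slc30a1*, *Slc30a5* and *Slc30a10*, and the Slc39 transporter genes *Slc39a6*, *Slc39a10* and *Slc39a14*. They were picked by name because zinc genes had responded to GSKJ4 in these same libraries. Their GSKJ4 values are therefore given as a description, without p-values, and no conclusion is drawn from a test of them. The other 19 genes of the metallothionein, Slc30 and Slc39 families in the annotation serve as the comparison, and they are what the choice left over.

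The cultures were C57BL/6 mESCs, maintained on mitomycin-C-treated fibroblast feeders and differentiated as embryoid bodies towards hypaxial motor column motor neurons. They were kept in retinoic acid and the Smoothened agonist SAG until D5, when the medium was changed to one without both. The Notch pathway inhibitor DAPT was given from D4, also in the later medium. The medium thus changed along with the stage, and the effects of stage and medium cannot be told apart. RNA-seq of polyadenylated RNA covered 21 libraries in 7 groups of 3 biological replicates. The untreated groups were D4 (day 4 of differentiation), D4H8 (8 h later), D5 and D6, and the treated groups were D4H8_GSKJ4, D5_GSKJ4 and D6_GSKJ4, each given GSKJ4 for the day before collection. GSKJ4 is a cell-permeable inhibitor of the H3K27 demethylases of the Kdm6 family. D4 had no treated group, and whether the untreated cultures received vehicle is not given in the sources used here. Nothing states that the replicates came from separate cell lines, so p-values measure the spread between these differentiations of the same cells.

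Libraries held 14982115 to 34383842 counted reads (median 16238435), and the deepest was untreated D4H8 replicate 1. D5_GSKJ4 replicate 2 stood apart in that 39381 genes were at 0, against 29339 to 32805 in the other 20 libraries. The motor neuron identity of the cultures was read from 8 marker genes (*Isl1*, *Isl2*, *Mnx1*, *Lhx3*, *Lhx4*, *Chat*, *Slc18a3* and *Slc5a7*). Their summed level was 22.4 to 52.9 CPM (a gene's reads per 1000000 counted reads) at D4, 197 to 217 at D4H8, 785 to 940 at D5 and 1449 to 1677 at D6.

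Metallothioneins are small cysteine-rich proteins that bind zinc and copper and buffer the free metal in the cell. Free zinc is sensed by MTF1, a zinc-finger transcription factor that binds metal response elements in the promoters of metallothionein genes and of the exporter gene *Slc30a1*. Slc30 (ZnT) proteins move zinc out of the cytosol, across the plasma membrane or into organelles, and Slc39 (ZIP) proteins move it in. A rise of metallothionein and *Slc30a1* mRNA is the textbook response of cells to more zinc, and cadmium and other stresses can also induce metallothioneins.

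The promoter windows of the zinc genes that rose furthest at D4H8 under GSKJ4 are shown because they hold the letters that MTF1 is known to bind. Each is 300 bases (250 before to 50 after the RefSeq start, GRCm38.p6), written 5′ to 3′ on the gene's own strand. Capitals mark matches to the core of the metal response element, searched as TGCACNC and TGCGCNC on both strands with overlapping matches allowed. *Slc30a2* and *Slc30a4* are not among the 10 genes and are shown for the comparison.
Mt1, chr8:94178839-94179138, plus strand: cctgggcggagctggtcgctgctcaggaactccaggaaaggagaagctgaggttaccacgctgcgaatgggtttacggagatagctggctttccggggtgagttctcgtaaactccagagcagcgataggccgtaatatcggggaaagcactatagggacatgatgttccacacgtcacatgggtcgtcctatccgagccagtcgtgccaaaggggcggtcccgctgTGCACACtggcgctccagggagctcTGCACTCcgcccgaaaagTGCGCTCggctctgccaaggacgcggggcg
Mt2, chr8:94172368-94172667, plus strand: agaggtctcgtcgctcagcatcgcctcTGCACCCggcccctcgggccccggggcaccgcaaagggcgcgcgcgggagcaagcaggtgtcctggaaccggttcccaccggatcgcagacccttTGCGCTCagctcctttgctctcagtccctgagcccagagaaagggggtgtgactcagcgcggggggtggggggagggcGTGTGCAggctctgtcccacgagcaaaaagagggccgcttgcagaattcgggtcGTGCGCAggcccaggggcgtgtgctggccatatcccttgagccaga
Slc30a1, chr1:191906531-191906830, plus strand: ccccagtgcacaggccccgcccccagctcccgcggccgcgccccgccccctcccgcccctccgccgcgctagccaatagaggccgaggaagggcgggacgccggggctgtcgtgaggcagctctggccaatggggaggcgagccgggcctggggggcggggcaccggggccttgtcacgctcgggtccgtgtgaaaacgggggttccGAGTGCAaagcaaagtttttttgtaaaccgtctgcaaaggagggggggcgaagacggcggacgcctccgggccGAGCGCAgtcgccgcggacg
Slc30a2, chr4:134343216-134343515, plus strand: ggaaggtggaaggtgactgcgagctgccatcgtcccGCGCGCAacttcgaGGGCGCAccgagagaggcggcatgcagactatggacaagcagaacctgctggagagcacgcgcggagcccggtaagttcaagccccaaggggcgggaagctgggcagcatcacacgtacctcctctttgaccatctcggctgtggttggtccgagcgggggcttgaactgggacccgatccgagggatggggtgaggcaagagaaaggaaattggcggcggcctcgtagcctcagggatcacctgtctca
Slc30a4, chr2:122702614-122702913, minus strand: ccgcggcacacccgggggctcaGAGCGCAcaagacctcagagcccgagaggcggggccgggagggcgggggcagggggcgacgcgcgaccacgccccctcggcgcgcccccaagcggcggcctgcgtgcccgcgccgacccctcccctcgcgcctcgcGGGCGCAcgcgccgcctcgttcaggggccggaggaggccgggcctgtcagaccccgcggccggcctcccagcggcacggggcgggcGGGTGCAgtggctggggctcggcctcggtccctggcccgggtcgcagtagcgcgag

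Among 32851 such windows, 25.7% held at least 1 match, 7.11% at least 2, 1.97% at least 3 and 0.517% at least 4. *Mt2* had 4 matches, *Mt1* 3 and *Slc30a1* 2. *Slc30a10* had 3, a pair of which overlap each other, *Mt3* and *Slc30a5* had 1 each, and *Mtf1* and both windows of *Slc39a10* had 0. *Slc39a6* and *Slc39a14* had no entry. Of the 25 zinc genes with a window, members and others together, 6 held at least 2 matches, which were *Mt1*, *Mt2*, *Slc30a1*, *Slc30a10*, *Slc30a2* and *Slc30a4*. Counted the same way, each gene at its highest window, 8.07% of all 27025 genes with a window held at least 2. A match describes these letters only.

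*Mt1* (GRCm38 8:94179082-94180327) had 58.6, 148 and 168 CPM in the untreated D4H8 libraries and 1037, 307 and 988 CPM in the GSKJ4 libraries, in the order of replicates 1, 2 and 3. Every treated library lay above every untreated one (overlap is judged on CPM after TMM scaling throughout the GSKJ4 comparisons), while the treated libraries were themselves unequal, with replicate 2 far below the other two. The log2 fold change fitted by edgeR was 2.58 (SE 0.474), 5.99-fold. By replicate number, the treated library held 17.7, 2.07 and 5.89 times the *Mt1* level of its untreated counterpart.

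*Mt2* (8:94172664-94173568), which lies beside *Mt1* on chromosome 8 and encodes the other widely expressed metallothionein, had the same shape. Its untreated D4H8 libraries held 46.3, 119 and 144 CPM and its GSKJ4 libraries 841, 306 and 888 CPM. The groups did not overlap and replicate 2 was again the low treated library. Its log2 fold change of 2.66 (SE 0.457) was 6.33-fold.

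*Slc30a1* (1:191906767-191913247), the zinc exporter of the plasma membrane, had 17.2, 18.3 and 24.1 CPM without and 91.2, 94.2 and 84.1 CPM with GSKJ4 at D4H8. The groups were far apart, and here the treated libraries were nearly equal. Replicate 2, the lowest treated library for both metallothioneins, was the highest for *Slc30a1*. The log2 fold change was 2.15 (SE 0.200), 4.45-fold. *Mtf1* (4:124802104-124849800), which encodes the sensor itself, had 22.6, 23.4 and 26.3 CPM without and 37.4, 32.0 and 27.9 CPM with GSKJ4. All treated libraries were above the untreated ones by a small margin, with a log2 fold change of 0.40 (SE 0.201). In TMM-scaled CPM treated replicate 3 (26.15) and untreated replicate 3 (26.11) were nearly level.

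**Figure D1:**
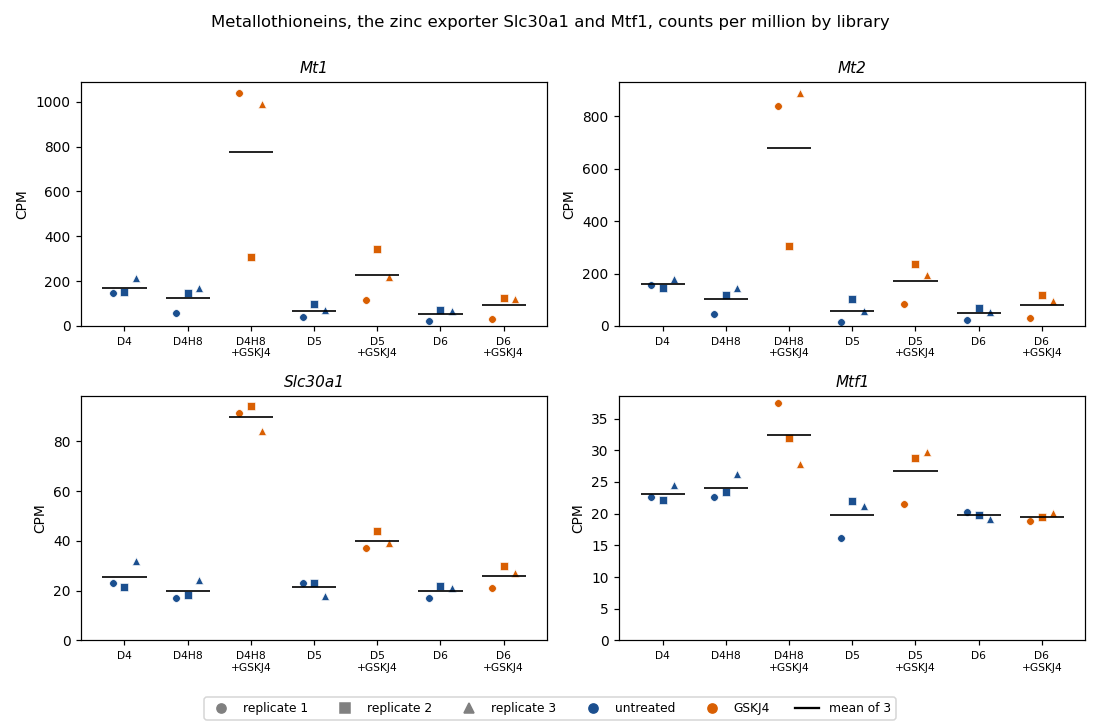
CPM (linear axes from 0) of *Mt1*, *Mt2*, *Slc30a1* and *Mtf1* in each of the 21 libraries, grouped by stage and treatment; marker shape gives the replicate number and the black line the mean of 3. The D4H8_GSKJ4 libraries of *Slc30a1* sit together at 84.1 to 94.2 CPM, while those of *Mt1* spread from 307 to 1037 CPM.

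The importer genes *Slc39a14* and *Slc39a10* lay lower under GSKJ4 at D4H8. *Slc39a14* (14:70303469-70351425), a ZIP protein that carries zinc and also iron and manganese, had 263, 182 and 201 CPM in the untreated libraries and 79.5, 57.9 and 80.8 CPM in the treated ones. The groups did not overlap and each treated library held 0.302 to 0.402 of its same-numbered untreated library. The log2 fold change was -1.62 (SE 0.207). *Slc39a10* (1:46807544-46892852), a plasma membrane importer of the LIV-1 subfamily, had 230, 223 and 184 CPM without and 85.5, 157 and 95.2 CPM with GSKJ4. Its groups were also apart, with a log2 fold change of -0.92 (SE 0.281), and replicate 2 was the treated library nearest to the untreated ones.

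*Slc39a6* (chromosome 18), which encodes another LIV-1 importer that can pair with the *Slc39a10* product, had 134, 102 and 95.9 CPM without and 97.7, 90.1 and 62.7 CPM with GSKJ4. These groups overlapped (log2 fold change -0.44, SE 0.240). *Slc30a5* (13:100802648-100833427), a zinc transporter of the early secretory pathway, had 59.6 to 66.8 CPM without and 64.2 to 78.3 CPM with GSKJ4, which overlapped as well (0.11, SE 0.162). *Slc39a6* overlaps *Elp2*, and *Mtf1* overlaps 1110065P20Rik, on the opposite strand. How reads in these overlaps were assigned is not known, since the counting strand is not given in the sources used here. Those partners had median counts of 3113 against 2547 for *Slc39a6* and 277 against 381 for *Mtf1*. The antisense transcripts that overlap *Mt2* and *Slc30a1* had median counts of 39 and 16.

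*Mt3* (8:94152607-94154146), the metallothionein best known from brain, was barely detected. It had 7, 9 and 19 counts in the untreated and 13, 1 and 29 in the treated D4H8 libraries, which overlapped. *Slc30a10* (1:185454848-185468762), which encodes a manganese exporter, had 4 to 9 counts without and 6 to 14 with GSKJ4 and did not pass the filter on low counts at D4H8 or D5. In all, 9 of the 10 genes passed the filter at D4H8, and their treated libraries lay above the untreated ones for 4 and below for 2. Over all 16269 genes tested, 16.9% lay above and 16.8% below, and nothing is read from the members' count because this contrast chose them. Their median log2 fold change was 0.40, beside 0.02 over all genes.

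At D5 the same genes stood apart by less. *Mt1* had 38.8, 96.9 and 68.8 CPM without and 115, 344 and 219 CPM with GSKJ4, and every treated library was above every untreated one. The log2 fold change was 1.67 (SE 0.390), and the ratios within replicate numbers were close to each other at 2.96, 3.55 and 3.18. *Mt2* had 16.2, 102 and 56.5 CPM without and 82.3, 236 and 194 CPM with GSKJ4. Its groups overlapped, because treated replicate 1 was below untreated replicate 2, although each treated library held 2.31 to 5.08 times its same-numbered untreated library (log2 fold change 1.50, SE 0.550). *Slc30a1* had 23.1, 22.9 and 17.9 CPM without and 37.0, 43.9 and 39.0 CPM with GSKJ4. These groups did not overlap, with a log2 fold change of 0.86 (SE 0.188).

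Of the other genes, *Mtf1* differed by about as much at D5 as at D4H8, where its log2 fold change was 0.40. *Mtf1* had 16.2 to 22.0 CPM without and 21.6 to 29.8 CPM with GSKJ4 (log2 fold change 0.39, SE 0.205), an overlap of a single library, and each treated library was above its same-numbered one. *Slc39a14* had 75.8 to 94.1 and 55.7 to 85.1 CPM (-0.33, SE 0.181), *Slc39a10* 131 to 181 and 144 to 172 CPM (-0.08, SE 0.163), *Slc39a6* 150 to 202 and 158 to 213 CPM (0.08, SE 0.184), and *Slc30a5* 48.9 to 59.0 and 48.8 to 67.6 CPM (0.02, SE 0.170). All 4 overlapped between groups. *Mt3* had 20, 23 and 11 counts without and 7, 0 and 5 with GSKJ4, which did not overlap. The treated library at 0 was replicate 2, the one with the most genes at 0, and at this depth no size of change can be given for *Mt3*. *Slc30a10* had 17, 10 and 10 counts without and 9, 0 and 2 with GSKJ4. Of the 9 genes that passed the filter, 2 lay above and 1 below in every treated library, beside 5.27% above and 6.38% below over all 16309 genes. The 1 below was *Mt3*, which reached the filter's minimum count of 10 only in its untreated libraries. Its place below was thus partly set by the filter, and nothing is read from these counts. The median log2 fold change of the 9 genes, *Mt3* included, was 0.08, against -0.02 over all genes.

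At D6 the groups of *Mt1* overlapped, with 21.9, 72.1 and 66.5 CPM without and 32.0, 126 and 120 CPM with GSKJ4. *Mt2* was alike, with 20.8, 69.3 and 54.0 CPM without and 29.9, 118 and 95.9 CPM with GSKJ4. Replicate 1 was low in both groups for both genes. The same-numbered libraries deviated together at D6 across the transcriptome, and within numbers the ratio was 1.46, 1.75 and 1.80 for *Mt1* and 1.44, 1.70 and 1.78 for *Mt2*. Accordingly the log2 fold change of *Mt1* was 0.78 with an SE of 0.556, and 0.75 with an SE of 0.0635 when the replicate number was a block; for *Mt2* it was 0.75 (SE 0.538) and 0.72 (SE 0.0651). *Slc30a1* had 18.0, 21.7 and 20.4 TMM-scaled CPM without and 21.9, 29.6 and 26.2 with GSKJ4. Treated replicate 1 and untreated replicate 2 were nearly level, and their order depended on the scaling: in plain CPM and after upper-quartile scaling the groups overlapped. The log2 fold change was 0.37 (SE 0.152).

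The remaining 7 genes overlapped between groups at D6, with log2 fold changes between -0.11 for *Slc30a5* and 0.04 for *Slc39a14*. These included both importer genes that lay lower at D4H8, *Slc39a14* with 26.8 to 34.9 CPM without and 31.1 to 34.4 CPM with GSKJ4, and *Slc39a10* with 147 to 151 and 135 to 159 CPM. All 10 genes passed the filter, and 1 lay above and 0 below, beside 2.73% and 2.56% over all 16301 genes. Their median log2 fold change was -0.01, against 0.00 over all genes. The changes in *Mt1*, *Mt2* and *Slc30a1* were thus smaller at each later stage, a difference between stages that was not tested because it is part of what chose the genes.

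**Figure D2:**
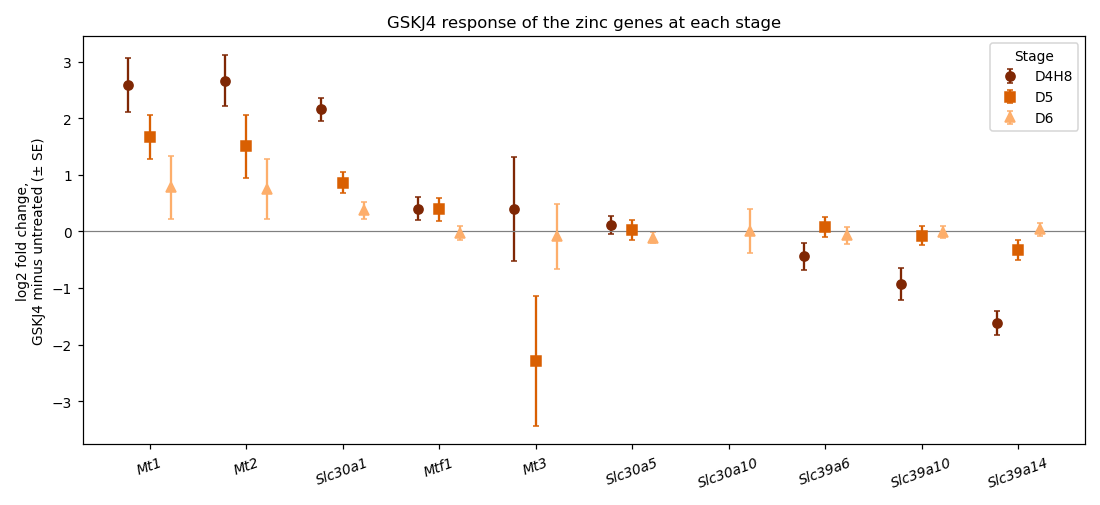
Log2 fold change, GSKJ4 minus untreated, of the 10 genes at D4H8 (circles), D5 (squares) and D6 (triangles), each from 3 treated and 3 untreated libraries. Bars are the SE derived from edgeR's F statistic. *Slc30a10* has no value at D4H8 and D5, and that of *Mt3* at D5 rests on 0 to 23 counts. *Mt1* goes from 2.58 to 1.67 and 0.78, *Slc30a1* from 2.15 to 0.86 and 0.37, and *Slc39a14* from -1.62 to -0.33 and 0.04.

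The 19 other zinc genes give values that the choice of the 10 did not use directly, although they are its complement. At D4H8, 16 of them were tested and 2 rose under GSKJ4 at an adjusted p under 0.05 (edgeR quasi-likelihood test with Benjamini-Hochberg adjustment over all genes), and 0 fell. Over all genes 2.11% rose and 1.85% fell. *Slc30a2*, which encodes a vesicular zinc transporter, had 17, 17 and 16 counts (0.494 to 1.07 CPM) without and 69, 58 and 72 counts (3.39 to 4.58 CPM) with GSKJ4. The log2 fold change of *Slc30a2* passed the test at 2.21 (adjusted p = 0.0262 by edgeR, SE 0.407). *Slc30a4*, another transporter that loads zinc into vesicles, had 33.5, 34.5 and 32.5 CPM without and 67.1, 96.7 and 62.6 CPM with GSKJ4 (adjusted p = 0.0343 by edgeR, log2 fold change 1.16, SE 0.236). Both were higher in 3 of 3 treated libraries. An unadjusted p under 0.05 was found for 5 of the 16, beside 4085 of all 16269 genes. The count of 2 depended on the libraries used. It was 0 without any single untreated D4H8 replicate, 1 without D4H8_GSKJ4 replicate 3 and 4 without D4H8_GSKJ4 replicate 2. Calls over all genes moved alike. From 343 called higher with all libraries, they went to 2, 3 and 3 without untreated D4H8 replicates 1, 2 and 3. They went to 266 without D4H8_GSKJ4 replicate 3 and to 998 without D4H8_GSKJ4 replicate 2.

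*Slc30a4* had log2 fold changes of 0.33 (SE 0.178) at D5 and 0.16 (SE 0.0935) at D6. It had 33.1 to 38.9 CPM without and 39.2 to 52.6 CPM with GSKJ4 at D5, and 36.3 to 36.6 and 40.9 to 41.3 CPM at D6. In TMM-scaled CPM the groups overlapped at D5, with 32.9 to 39.4 without and 37.9 to 50.8 with GSKJ4, and lay apart at D6, with 35.8 to 38.3 and 39.8 to 43.0. Neither difference passed the test (edgeR adjusted p = 0.976 and 1.00). None of the other zinc genes passed at D5 or D6, where 2 and 0 of them had an unadjusted p under 0.05. This test called 1 of all genes at D5 (0.00613%), with 767 genes at an unadjusted p under 0.05, and 0 at D6, with 222. DESeq2 called 31 higher and 42 lower genes at D5 and 1 lower gene at D6, none of them a zinc gene of the comparison list.

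Set beside the promoters, the 5 tested zinc genes with at least 2 matches to the metal response element core had the highest log2 fold changes of the 22 zinc genes with both values at D4H8. These were *Mt2* (2.66), *Mt1* (2.58), *Slc30a2* (2.21), *Slc30a1* (2.15) and *Slc30a4* (1.16). The 17 with 0 or 1 match ranged from -0.97 for *Slc39a2* to 0.82 for *Slc39a5*. This arrangement was seen after the values were known, 3 of the 5 genes were chosen for their response, and no test was made. *Slc30a10*, with 3 matches, had too few counts to be placed. *Slc39a4*, *Slc39a6* and *Slc39a14* had no promoter window and could not be placed either. The log2 fold change of *Slc39a4* at D4H8 lay between those of *Slc39a5* and *Slc30a4*. The gap between the groups therefore holds only among the zinc genes with a window.

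**Figure D3:**
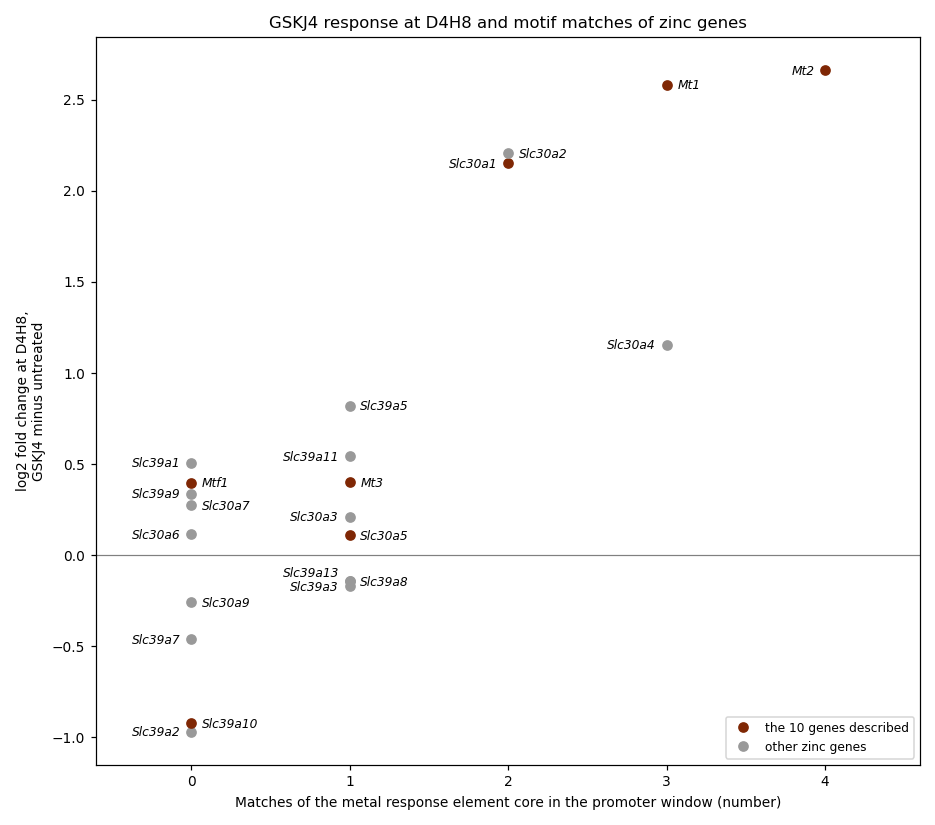
Log2 fold change at D4H8, GSKJ4 minus untreated (vertical), against the number of metal response element core matches in the promoter window (horizontal) for the 22 zinc genes with both values; a gene with more than 1 window is placed at its highest number. Genes with 2 or more matches lie between 1.16 and 2.66, and those with fewer lie between -0.97 and 0.82. *Slc39a4*, whose log2 fold change falls between these ranges, has no window and is not shown.

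Genes of neighbouring systems were counted from fixed lists. None of 10 copper handling genes, 7 oxidative and metal stress genes and 5 glucocorticoid response genes passed edgeR's test under GSKJ4 at any stage. At D4H8 1, 3 and 1 of them had an unadjusted p under 0.05, beside 4085 of all 16269 genes. DESeq2 called 0, 2 (higher) and 1 (lower) of them there. At D5 each list had 1 gene at an unadjusted p under 0.05, of which DESeq2 called 1 stress gene, and at D6 both counts were 0 for each list. Their median log2 fold changes at D4H8 were -0.12, 0.47 and -0.08, against 0.02 over all genes. Markers of the cells in the culture moved at D4H8. Of 7 motor neuron progenitor markers 5 fell under GSKJ4 (*Olig1*, *Olig2*, *Nkx6-1*, *Nkx6-2* and *Neurog2*), with the summed level of the list at 706 to 951 CPM without and 132 to 262 CPM with GSKJ4. Of 7 tested motor neuron markers 3 fell (*Isl1*, *Lhx3* and *Chat*), with sums of 197 to 217 and 41.0 to 88.4 CPM. Of 4 tested glial markers 2 fell, *Slc1a3* and *Fabp7*, which progenitors also express.

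No feeder fibroblast, pluripotency, endoderm or interneuron marker passed edgeR's test at D4H8. There 3, 0, 2 and 0 of them had an unadjusted p under 0.05, beside 4085 of all 16269 genes. DESeq2 called 1 endoderm marker in each direction, and the sums of these lists overlapped between groups at D4H8. Feeder fibroblast markers summed to 62.4 to 128 CPM without and 111 to 257 CPM with GSKJ4, pluripotency markers to 61.0 to 280 and 143 to 349 CPM, endoderm markers to 29.4 to 33.2 and 25.0 to 46.7 CPM, and interneuron markers to 10.2 to 13.3 and 10.3 to 19.0 CPM. In the same order, the median log2 fold changes of the tested markers at D4H8 were 0.83, 0.67, 0.38 and 0.49, against 0.02 over all genes. Whether the mix of cells had a part in the zinc gene values was not tested, and in bulk RNA a change in the number of cells of a type and a change in RNA per cell cannot be told apart. At D5 and D6 no marker of these lists passed edgeR's test. At D5 6 of 8 motor neuron and 2 of 7 progenitor markers had an unadjusted p under 0.05 and DESeq2 called 4 of the former lower, and at D6 these counts were 1, 0 and 0.

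The genes were chosen on the GSKJ4 comparisons, so the untreated stages were tested, although these libraries are also the controls of those comparisons. Levels of different genes are compared per length, in FPKM (CPM per kilobase of exonic length). At D4 *Mt2* had 272 ± 32.3 FPKM (SD, n = 3) and *Mt1* 137 ± 31.4 FPKM, the highest of the 10. *Slc39a10* followed with 34.5 ± 5.30, *Slc39a6* with 18.0 ± 0.661 and *Slc39a14* with 14.1 ± 2.97 FPKM. *Slc30a5* (9.15 ± 0.505), *Slc30a1* (4.88 ± 1.07) and *Mtf1* (2.60 ± 0.136) were lower, and *Mt3* (0.950 ± 0.151) and *Slc30a10* (0.100 ± 0.0400) were at the limit of what these depths count. By D6 *Mt2* was at 81.7 ± 42.2 and *Mt1* at 43.0 ± 22.1 FPKM, and *Slc39a6*, at 48.8 ± 4.88 FPKM, lay within their range.

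From D4 to D6, 5 of the 10 genes fell and 2 rose (edgeR quasi-likelihood test with Benjamini-Hochberg adjustment), beside 31% of all 17519 tested genes that fell and 32.9% that rose. Both metallothioneins fell. *Mt1* went from 145, 152 and 216 CPM at D4 to 21.9, 72.1 and 66.5 CPM at D6, with no overlap (edgeR adjusted p = 0.00419, log2 fold change -1.62, SE 0.424). *Mt2* went from 155, 144 and 181 to 20.8, 69.3 and 54.0 CPM, also without overlap (-1.68, SE 0.537, edgeR adjusted p = 0.0137). The call for *Mt2* held under 12 of 13 alternatives and was lost without D6 replicate 1, its lowest library (-1.34, edgeR adjusted p = 0.0516), while that for *Mt1* held under 13 of 13. *Slc30a1*, with 21.6 to 32.0 CPM at D4 and 17.2 to 21.9 CPM at D6, did not pass the test (-0.29, SE 0.179, edgeR adjusted p = 0.173), nor did *Mtf1* (-0.16, SE 0.141, edgeR adjusted p = 0.334).

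The 3 importer genes parted over the same span. *Slc39a14* fell the most of the 10, from 125, 136 and 184 CPM at D4 to 26.8, 34.9 and 32.7 CPM at D6 (log2 fold change -2.17, SE 0.169, edgeR adjusted p = 9.16e-08). *Slc39a6* rose in every library, from 70.2, 75.2 and 74.5 CPM to 222, 191 and 185 CPM (1.51, SE 0.170, edgeR adjusted p = 3.4e-06). *Slc39a10* fell by less, from 179 to 243 CPM at D4 to 147 to 151 CPM at D6 (-0.44, SE 0.154, edgeR adjusted p = 0.0233). The call for *Slc39a10* held under 8 of 13 alternatives and was lost without D4 replicate 1 or 2 or D6 replicate 2 or 3 (edgeR adjusted p up to 0.0995), those for *Slc39a14* and *Slc39a6* under 13 of 13. *Slc30a5* fell a little, from 62.6 to 69.6 CPM to 44.2 to 51.6 CPM (-0.44, SE 0.114, edgeR adjusted p = 0.0037). *Slc30a10* rose from 7 to 20 counts to 23 to 42 counts (1.55, SE 0.520, edgeR adjusted p = 0.0182), a call that held under 8 of 12 alternatives and was lost without D4 replicate 2 or 3 or D6 replicate 1 (edgeR adjusted p up to 0.0936), and *Mt3* had 14 to 27 and 7 to 33 counts with no call (0.13, SE 0.626, edgeR adjusted p = 0.864).

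**Figure D4:**
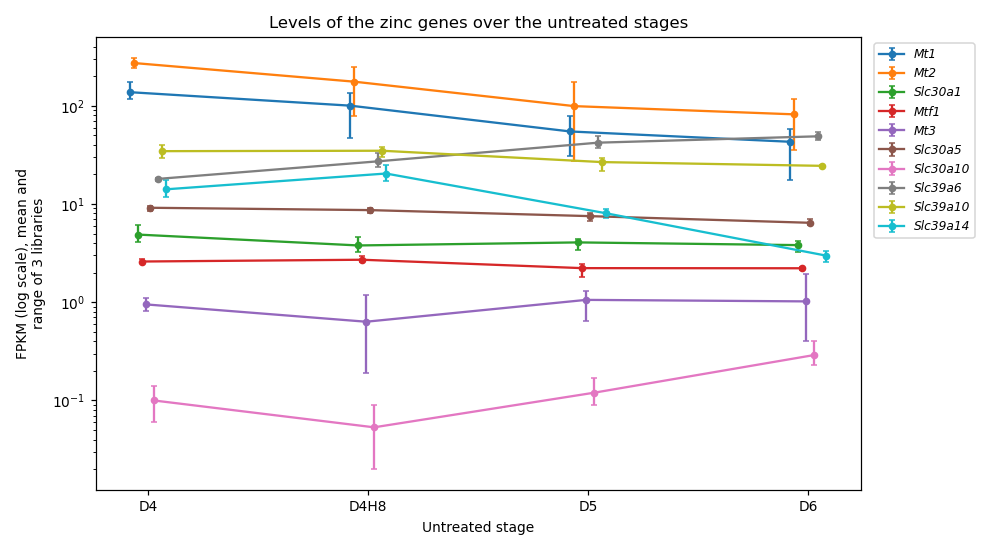
FPKM (log axis) of the 10 genes at the untreated stages D4, D4H8, D5 and D6; points are means and bars the lowest and highest of 3 libraries. *Mt1*, *Mt2* and *Slc39a14* end lower at D6 than at D4, *Slc39a6* ends higher, and *Slc30a1* and *Mtf1* did not pass the test.

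By single steps, *Slc39a14* stood at 263, 182 and 201 CPM at D4H8, 75.8, 84.7 and 94.1 CPM at D5 and 26.8 to 34.9 CPM at D6. It fell at both late steps in edgeR's test. Between D4H8 and D5 the log2 fold change was -1.35 (SE 0.163, adjusted p = 3.5e-05 by edgeR), between D5 and D6 -1.32 (SE 0.166, adjusted p = 5.4e-05 by edgeR) and between D4 and D4H8 0.50 (SE 0.160, adjusted p = 0.112 by edgeR). *Slc39a6* rose from D4H8, at 95.9 to 134 CPM, to D5, at 150 to 202 CPM (0.63, SE 0.167, edgeR adjusted p = 0.0116). With the replicate number as a block, fitted because same-numbered D4H8, D5 and D6 libraries deviated together, it also rose from D5 to D6 (0.33, edgeR adjusted p = 0.143 without and 0.0327 with the block). *Mt1* fell from D4H8 to D5 under the block and not without it (-0.86, SE 0.416, edgeR adjusted p = 0.145 without and 0.0264 with it). This fall passed under 3 of 13 alternatives, the block among them.

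Without the block, no other step of any of the 10 genes passed edgeR's test. With the block, *Slc39a6* also rose from D4 to D4H8 (edgeR adjusted p = 0.0156). From D4 to D4H8 edgeR without the block called 0 of the 10, beside 4.06% of all genes higher and 0.32% lower. An unadjusted p under 0.05 was reached by 3 of them, beside 2894 of all 17519 genes, and DESeq2 called 1, *Slc39a6*, higher. Between D4H8 and D5 edgeR without the block called 1 higher and 1 lower, beside 17.2% and 10.5% of all genes. Between D5 and D6 it called 0 higher and 1 lower, beside 19.2% and 15.1%. The rise of *Slc39a6* from D4H8 to D5 was lost without untreated D4H8 replicate 2 or 3 and without D5 replicate 1.

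**Figure D5:**
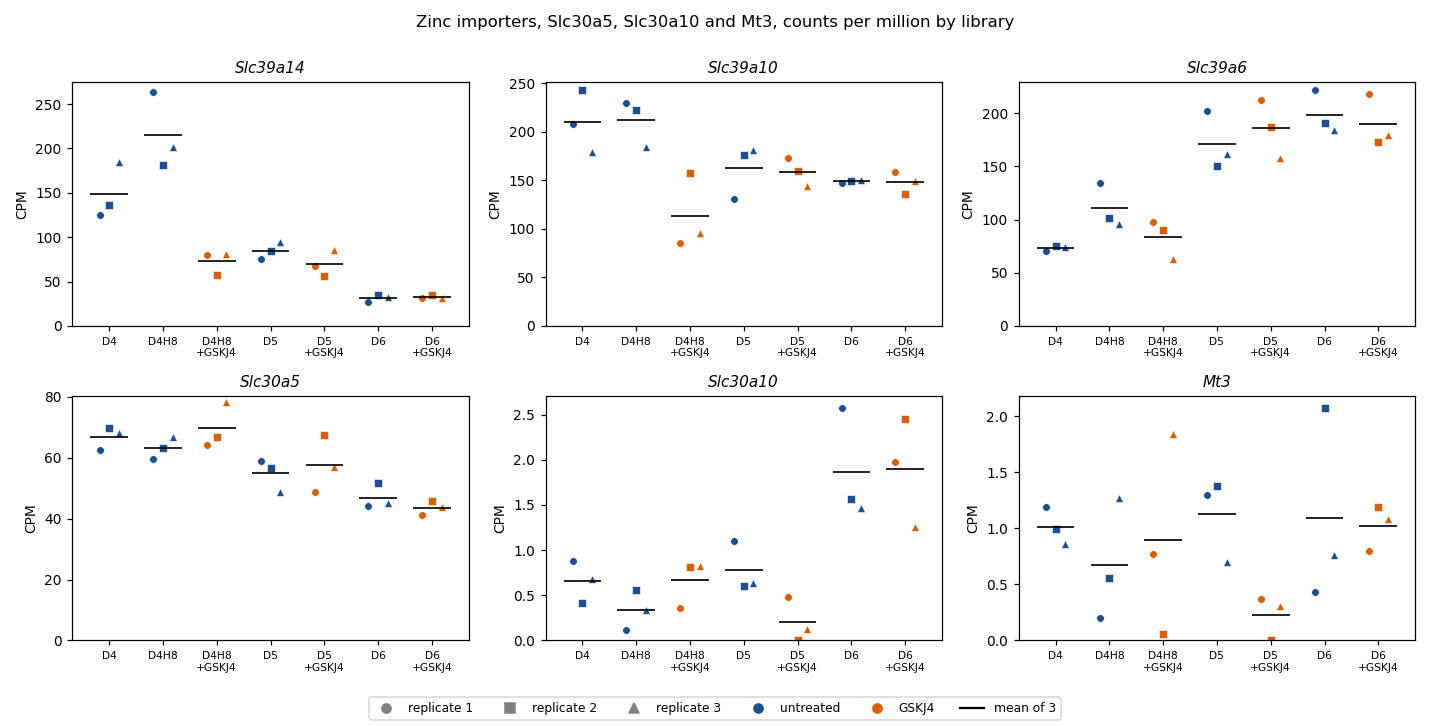
CPM (linear axes from 0) of *Slc39a14*, *Slc39a10*, *Slc39a6*, *Slc30a5*, *Slc30a10* and *Mt3* in each of the 21 libraries; marker shape gives the replicate number and the black line the mean of 3. The D4H8_GSKJ4 libraries of *Slc39a14*, at 57.9 to 80.8 CPM, lie at the level of the D5 groups and below both D4 and D4H8.

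Among the 16 other zinc genes tested, 4 rose and 6 fell from D4 to D6. These counts, and those of the lists that follow, stand beside the 32.9% of all genes that rose and the 31% that fell. The 3 that rose most were the importer genes *Slc39a3* (log2 fold change 2.81, SE 0.190, edgeR adjusted p = 2.1e-08), *Slc39a2* (1.38) and *Slc39a13* (1.31). The 3 that fell most were *Slc39a4*, an importer known from intestine (-1.59, SE 0.417, edgeR adjusted p = 0.00427), *Slc30a3*, the transporter of synaptic vesicles (-1.28), and *Slc39a8* (-1.11). Of the copper handling genes 1 rose and 3 fell, and of the oxidative and metal stress genes 0 rose and 6 of 7 fell. Of the glucocorticoid response genes 3 rose and 1 fell.

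The order of the 7 groups, and the overlap of neighbours in it, was taken in plain CPM and differed between genes. *Slc30a1* had its 3 treated groups at the top, with D4H8_GSKJ4 (89.8 ± 5.18 CPM, SD, n = 3) above D5_GSKJ4 (40.0 ± 3.55 CPM) and that above D6_GSKJ4 (26.0 ± 4.58 CPM), each apart from the next. D6_GSKJ4 overlapped D4 (25.6 ± 5.58 CPM), and each of the groups below overlapped its neighbour. For *Mt1* the order was D4H8_GSKJ4 (777 ± 408 CPM), D5_GSKJ4 (226 ± 115 CPM), D4 (171 ± 39.1 CPM), D4H8 (125 ± 58.1 CPM), D6_GSKJ4 (92.7 ± 52.7 CPM), D5 (68.1 ± 29.1 CPM) and D6 (53.5 ± 27.5 CPM), and every neighbour overlapped the next. *Slc39a14* was highest at D4H8 (215 ± 42.5 CPM) and D4 (149 ± 31.3 CPM), apart from D5 (84.9 ± 9.16 CPM), D4H8_GSKJ4 (72.7 ± 12.8 CPM) and D5_GSKJ4 (69.6 ± 14.7 CPM), which overlapped in turn, and both D6 groups were lowest.

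*Mt1* and *Mt2* moved together from library to library. Their ratio in CPM ran from 0.937 to 2.39 over the 21 libraries, with a median of 1.16, while *Mt1* itself ran from 21.9 to 1037 CPM. No stretch of 75 bases in the transcripts of either gene was found in another gene, the other metallothioneins included, and of the 10 genes only *Slc30a5* shared any (7 stretches, with *Alpk2*). Within groups the replicate 1 library had the lowest *Mt1* level in 6 of 7 groups, the exception being D4H8_GSKJ4, and the lowest *Mt2* level in 5 of 7.

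The genes whose log2 CPM was most like that of *Mt1* over the 21 libraries, of 15252 compared, were *Mt2* (Pearson's r 0.981), *Ggta1* (0.932), *Def6* (0.926), *Ifnlr1* (0.923) and *Slc16a6* (0.923). Those most like *Slc30a1* were *Kat2b* (0.916), *Fuca2* (0.908), *Trp53inp1* (0.891), *Stat5a* (0.889) and *Cpped1* (0.888). *Slc30a1* itself had an r of 0.812 with *Mt1*, *Mtf1* 0.745, and *Slc39a6* -0.72. These values describe groups that differ in stage and treatment, share their depth and culture, and are not independent points.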

How the data were processed

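RNA-seq of polyadenylated RNA was available for 21 libraries. Per the authors, Fastp trimmed the reads, HISAT2 placed them on mm10 and HTSeq made the gene counts; the counting strand is not given in the sources used here. The authors' deposited tables hold raw counts and FPKM, and recomputing FPKM from counts and exonic lengths gave the same values to within 0.005. The 21 pairs of libraries within groups had mean chi-square values per gene of 6.94 to 117, so none was a duplicate.

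The 10 genes and all lists were chosen with earlier results of these data known. Counts were tested with edgeR 4.0.16 in R 4.3.3 (quasi-likelihood test, TMM scaling, filterByExpr at a minimum count of 10, Benjamini-Hochberg adjustment over all tested genes, threshold 0.05). The 12 untreated libraries shared 1 fit, and each GSKJ4 contrast used its own 6 libraries. The SE given is the absolute log2 fold change divided by the square root of edgeR's F statistic. For the 10 genes under GSKJ4 it describes spread, and no p-value is drawn from it. The scripts were tested on simulated data with 200 changed genes. Overlap between treated and untreated libraries of a stage was judged on TMM-scaled CPM. Overlap between stages and in the order of the 7 groups was judged on plain CPM. Alternatives were DESeq2 1.42.0, scaling by RLE or upper quartile, dropping the filter or demanding 10 counts in each library, the replicate number as a block, 1 fit of all 21 libraries, and omitting each library once.

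Genes were named by a rule: all 10 members, up to 6 genes of each other list called under GSKJ4, the 3 other zinc genes that rose and the 3 that fell most from D4 to D6 among those called, and the 5 genes most like *Mt1* and *Slc30a1* (log2 CPM with a prior count of 2, mean CPM of at least 1). Whether replicate numbers pair libraries was checked by correlating deviations from group means over genes. Same-numbered correlations between treated and untreated libraries were 0.663, 0.316 and 0.446 at D6, 0.440, 0.0733 and 0.256 at D4H8, and 0.224, 0.0388 and 0.209 at D5. Among untreated stages they were 0.137 to 0.399 for each pair of D4H8, D5 and D6. For D4 they were 0.288, 0.073 and 0.279 with D4H8, 0.077, -0.0204 and 0.178 with D5, and 0.0523, 0.0243 and 0.100 with D6. Symbols and positions came from GENCODE on GRCm38 (55140 of 55400 identifiers had a symbol) and promoter windows from RefSeq on GRCm38.p6, where 8 of the 10 genes had one. Counting intervals were not needed, since values are given per replicate, and their number and depth limit the precision.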

Additional observations from a re-analysis of the deposited data

How the results depend on the processing

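The directions and calls of most values were kept, and the exceptions follow. Of the alternatives' values for single genes across the untreated stages, 452 kept their direction and side of the threshold, 18 passed it newly, 14 no longer passed it and 28 changed sign; the sign changes all concern values that passed no test. With DESeq2, the members called higher were 1 from D4 to D4H8 and 1 from D5 to D6, against 0 in edgeR, and the other zinc genes called higher under GSKJ4 at D4H8 were 4 against 2. With no filter, 2 members were higher and 2 lower from D4 to D4H8 and 3 lower from D4H8 to D5. A fit over all 21 libraries gave 0 members higher from D4H8 to D5 and 1 from D4 to D6, as did the demand of 10 counts in every library for the latter, which leaves *Slc30a10* out. Upper-quartile scaling left 0 members above without overlap at D6, moved the median log2 fold change of all genes from D4 to D6 from -0.04 to -0.19, and gave 5144 higher and 6342 lower genes there, against 5761 and 5427. It also turned the log2 fold change to -0.0237 for *Mtf1* from D4 to D4H8, to -0.0267 for *Mt3* and -0.0651 for *Slc30a1* from D5 to D6, and to -0.0068 for *Mt3* from D4 to D6. The fit over 21 libraries gave -0.0271 for *Slc30a1* from D5 to D6, where DESeq2 gave 0.00775 and RLE scaling 0.00776 for *Slc39a10*. The cause of these shifts was not tested.

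With the replicate number as a block, 1 member was higher from D4 to D4H8 (*Slc39a6*, edgeR adjusted p = 0.0156), 2 were lower from D4H8 to D5 and 1 was higher from D5 to D6. Same-numbered correlations between D4 and D4H8 were 0.288, 0.073 and 0.279, so pairing by number is uncertain there. *Mt3* had -0.0496 from D5 to D6 and -0.00811 from D4 to D6 under the block, and the block changed no other call of a member. Over all genes under GSKJ4 the block gave 1235 higher and 1039 lower at D4H8, against 343 and 301, and 48 and 209 at D6, against 0 and 0; DESeq2 gave 1249 and 966 at D4H8.

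Leaving out each library in turn gave 0 to 1 members higher from D4 to D4H8, 0 to 1 higher and 1 to 2 lower from D4H8 to D5, 0 to 2 higher from D5 to D6 and 1 to 2 higher and 4 to 5 lower from D4 to D6. Other zinc genes higher under GSKJ4 at D4H8 ranged from 0 to 4, while all genes called higher there ranged from 2 to 998. With 2 libraries left in a group, overlap is rarer by construction, and members without overlap numbered 2 to 4 above and 1 to 3 below at D5 and 1 to 3 above and 0 to 2 below at D6. Log2 fold changes that changed sign ranged from -0.0431 to 0.0762 for *Mtf1* and -0.149 to 0.0667 for *Slc39a10* from D4 to D4H8, from -0.51 to 0.11 for *Mt1*, -0.61 to 0.49 for *Mt2*, -0.79 to 0.42 for *Mt3*, -0.12 to 0.10 for *Slc30a1* and -0.126 to 0.0443 for *Slc39a10* from D5 to D6, and from -0.71 to 0.50 for *Mt3* from D4 to D6. *Mt3* and *Slc30a10* are limited by their few counts.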
